A study of Mus musculus with 14 samples.

Results

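The 32 genes described here make up the pluripotency network that mouse embryonic stem cells use to keep their undifferentiated state. They were taken from a fixed list of names and matched to the array through the platform annotation, and all 32 listed genes were measured among 19935 genes in all. Where several probe sets matched a gene, the brightest by mean over the 14 arrays was used. All samples were embryonic fibroblasts from ICR mice, grown in embryonic stem cell medium and freed of feeder cells before RNA extraction. Vectors and days were taken from the sample titles, because a description repeated on all samples conflicts with the titles and characteristics. Fibroblasts transduced with GFP gave 1 array at day 6 and 1 at day 10. Fibroblasts transduced with SKO and the empty Flag vector, with SKO and HDAC7, or with SKO and MEF2C gave 2 arrays each at day 6 and 2 at day 10. SKO is not written out in the labels; it is the usual short form of Sox2, Klf4 and Oct4 (Pou5f1). Whether the 2 experiments of a group were separate cultures is not stated, so p-values measure the spread between these arrays alone, which may be technical. The cells were measured in bulk, so more cells with a transcript and more transcript per cell cannot be told apart.

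In embryonic stem cells the factors Nanog, Esrrb, Tfcp2l1, Nr5a2, Tbx3, Prdm14, Sall4 and Zfp42 work beside Oct4, Sox2 and Klf4, and many of them bind their own and each other's regulatory regions. Other members are surface or enzyme markers of the state (Alpl, Fut4), secreted signals and their co-receptor (Fgf4, Gdf3, Nodal, Lefty1, Lefty2, Tdgf1) and RNA-binding proteins (Lin28a, Lin28b, L1td1). During reprogramming of fibroblasts, alkaline phosphatase is known as an early marker, and activation of the endogenous network as a late step. HDAC7 belongs to the class IIa histone deacetylases, which bind transcription factors of the MEF2 family such as MEF2C.

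The values are log2 expression levels. The background level of an array was set at the 95th percentile of 1027 olfactory receptor genes, which fibroblasts are not known to use, and it lay between 5.12 and 5.33. Calls are those of limma with Benjamini-Hochberg adjustment over all 19935 genes, at an adjusted p below 0.05. By these rules 4 members were early, that is, higher in SKO+Flag than in GFP at day 6: Tfcp2l1, L1td1, Rif1 and Alpl. These are 4 of the 32 members, a share close to the 13.2% of all genes called higher in that comparison. A further 6 were late, being called higher in SKO+Flag than in GFP at day 10 but not at day 6: Sall1, Nr0b1, Gdf3, Fgf4, Fbxo15 and Jarid2. Not being called at day 6 does not mean no difference, as their median difference from GFP was 0.23 then. Of these 6, 4 (Sall1, Nr0b1, Fbxo15 and Jarid2) were also called higher at day 10 than at day 6 in SKO+Flag. Gdf3 and Fgf4 were not. Another 5 lay above background in both GFP arrays and were neither early nor late (Nanog, Sall4, Dppa4, Lin28a, Tbx3). The 6 silent members (Dppa2, Lin28b, Tcl1, Lefty2, Eras, Fut4) stayed at or below background on all 14 arrays, and the remaining 11 hovered around it. The number called silent rests on the level chosen: it was 19 with the 99th percentile and 23 with the median of each array's genes. With the 99th percentile Nanog and Dppa4 were among the silent members, and only Lin28a and Tbx3 kept the class above background in GFP. With the array median, 1 member (Tbx3) stood above it in both GFP arrays without being early or late.

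**Figure D1:**
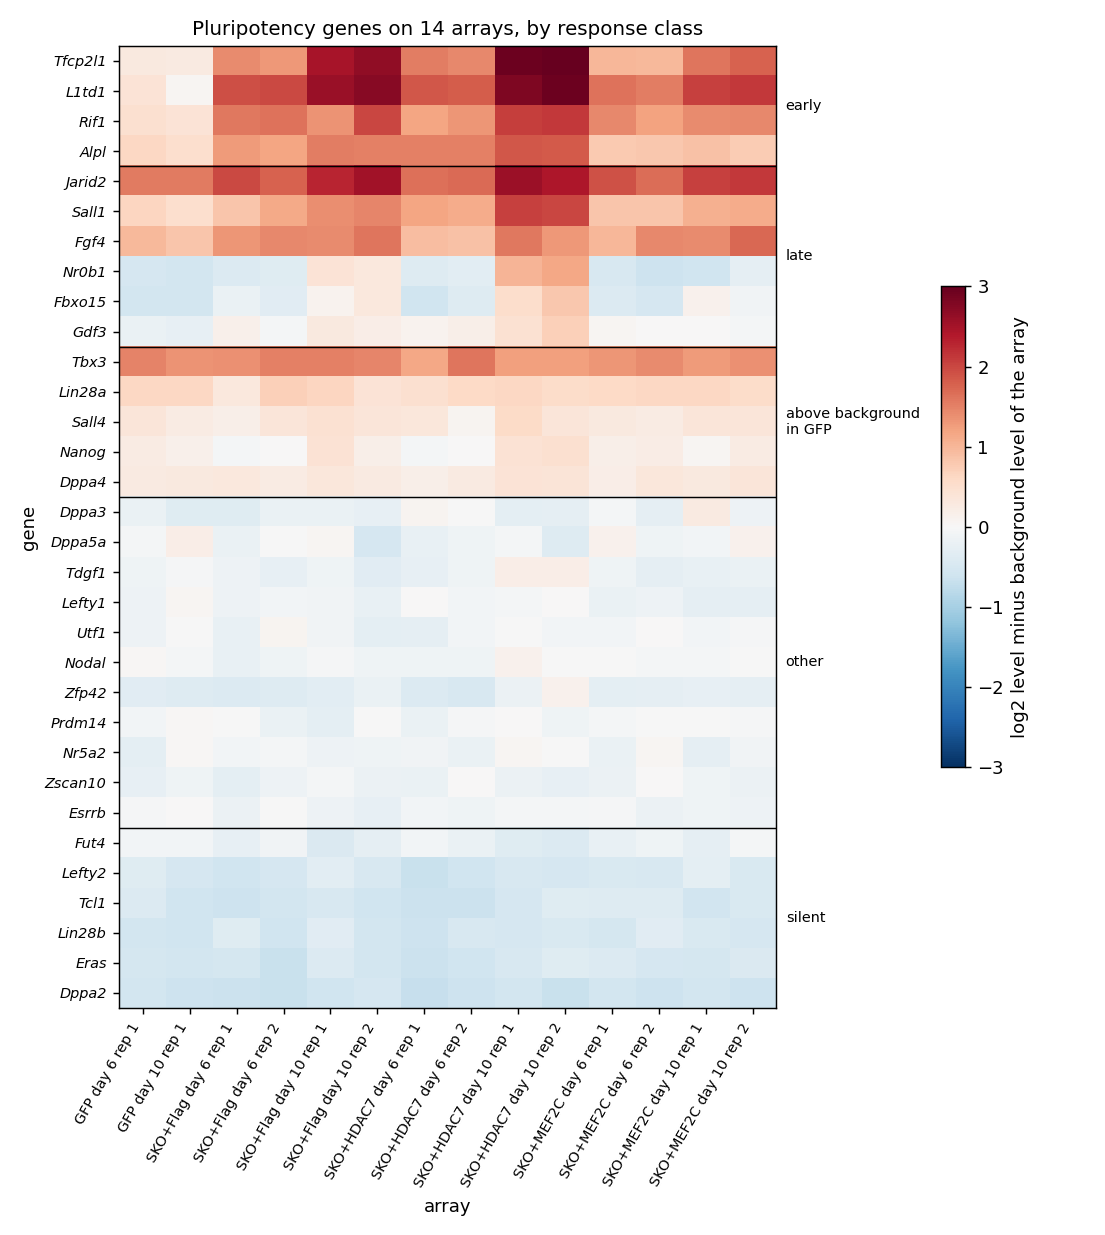
Level of each of the 32 genes (rows) on each of the 14 arrays (columns), as log2 level minus the background level of that array; the colour scale ends at -3 and 3, and lines separate the response classes. Most early and late rows are higher on the SKO arrays than in GFP, most of all in SKO+HDAC7 at day 10. Among the exceptions, Nr0b1 stays below 0 on all day 6 and all SKO+MEF2C arrays, and Alpl in SKO+MEF2C stays close to GFP. The silent rows lie at or below 0 by the definition of their class.

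Promoter sequence from RefSeq (GRCm38.p6) was matched by symbol for 20 of the 32 members, with 27 start sites. The 250 bases before the start are shown for 3 of the early and late members (Tfcp2l1, L1td1 and Nr0b1) and for Nanog, which was not among the responders. All 4 are on the plus strand, at chr1:118627695-118627944 (Tfcp2l1), chr4:98726504-98726753 (L1td1), chrX:86191525-86191774 (Nr0b1) and chr6:122707239-122707488 (Nanog, the upstream one of its start sites). Capitals mark motif matches on either strand.
Tfcp2l1: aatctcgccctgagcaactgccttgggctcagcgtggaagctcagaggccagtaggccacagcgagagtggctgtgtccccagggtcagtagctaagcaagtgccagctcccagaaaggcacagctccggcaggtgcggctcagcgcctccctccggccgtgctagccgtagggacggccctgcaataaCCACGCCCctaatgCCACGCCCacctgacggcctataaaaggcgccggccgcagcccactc
L1td1: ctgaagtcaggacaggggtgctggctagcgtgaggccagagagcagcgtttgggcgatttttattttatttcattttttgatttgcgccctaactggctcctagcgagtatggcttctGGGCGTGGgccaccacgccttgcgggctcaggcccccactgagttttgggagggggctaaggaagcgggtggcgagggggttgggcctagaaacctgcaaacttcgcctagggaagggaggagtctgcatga
Nr0b1: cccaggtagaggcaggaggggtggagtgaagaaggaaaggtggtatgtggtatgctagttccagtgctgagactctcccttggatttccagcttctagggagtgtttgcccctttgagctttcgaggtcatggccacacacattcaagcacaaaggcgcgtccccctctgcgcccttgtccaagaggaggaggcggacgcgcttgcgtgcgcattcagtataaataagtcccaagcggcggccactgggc
Nanog: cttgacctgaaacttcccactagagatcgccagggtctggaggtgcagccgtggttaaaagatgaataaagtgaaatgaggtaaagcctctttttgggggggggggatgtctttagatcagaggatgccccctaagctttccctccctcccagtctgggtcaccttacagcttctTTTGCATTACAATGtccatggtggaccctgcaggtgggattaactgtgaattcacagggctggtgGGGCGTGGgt

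The Klf site searched, GGGNGTGG, was found in 15.9% of the 32851 promoters of this length and in 10 of the 27 member promoters. Those 10 include both overlapping windows of Nanog. It matched at 2 places before Tfcp2l1, at 1 before L1td1 and at 1 before Nanog, and the Nr0b1 window held none. The octamer ATGCAAAT was in 1.6% of all promoters and in 1 of 27 member promoters, that of Zfp42. A joined octamer and Sox motif, searched in its first form, matched 0 of the 32851 promoters. A form 1 base shorter was then chosen after the Nanog sequence had been read, so its match there is no finding: it describes that sequence, and its 2 matches among all promoters are overlapping windows of Nanog. That form overlaps the octamer in all but the octamer's last base. By class, 3 of the 4 early members had a window and 2 of them a Klf match, against 1 of 4 late members with a window and 1 of 4 silent ones. Of the members above background in GFP 1 of 2 with a window had a match, and of the remaining class 3 of 7. These matches describe letters in the windows and were not tested against the response.

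The transduced factors were checked against the labels. Pou5f1 lay at 5.24 and 5.18 on the GFP arrays and between 11.70 and 12.10 on the SKO arrays. It read 12.01 to 12.08 in SKO+HDAC7 and 11.70 to 11.92 in SKO+MEF2C, without overlap. The part of this in the members' differences was not tested. Sox2 stayed between 4.93 and 5.37 on all arrays, and its one call against GFP was in SKO+HDAC7 at day 6 (0.29 ± 0.09, limma adjusted p = 0.045). Klf4 was already high in GFP (8.93 and 8.66) and reached 9.18 at most. Hdac7 was higher by 4.28 ± 0.06 (SE) in SKO+HDAC7 than in SKO+Flag, and Mef2c by 3.07 ± 0.07 in SKO+MEF2C. The fibroblast markers, 10 of 10 above background on every array, had a mean level of 10.38 and 10.88 in GFP and lay between 8.98 and 9.01 in SKO+HDAC7 on day 10. Germ cell markers lay above background for 0 or 1 of 7 genes on each array, trophoblast markers for 3 of 7 and endoderm markers for 3 of 6 on all arrays, and macrophage markers for 1 to 3 of 5.

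The early responders were an RNA-binding protein, a transcription factor, a telomere and DNA repair factor and an alkaline phosphatase. L1td1, an RNA-binding protein of the stem cell state, lay at 5.68 and 5.31 in GFP, 7.11 and 7.22 in SKO+Flag on day 6, then 7.74 and 7.88 on day 10. The SKO+Flag arrays were all above both GFP arrays, and the difference was 1.48 ± 0.09 (limma adjusted p = 6.1e-07) at day 6 and 2.51 ± 0.09 (limma adjusted p = 6.3e-09) at day 10. Tfcp2l1, a factor that acts downstream of LIF signalling, went from 5.56 and 5.50 in GFP to 6.60 and 6.54 at day 6 and 7.63 and 7.81 at day 10. It was 2.01-fold higher than GFP at day 6 and 4.67-fold higher at day 10 (limma adjusted p = 1.2e-05 and 1.5e-08).

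Rif1, which acts in replication timing and DNA repair, lay at 5.74 and 5.66 in GFP and at 6.76 and 6.86 in SKO+Flag at day 6. Its day 10 arrays were 6.51 and 7.16, the widest pair of the early genes, and the difference from GFP was 1.08 ± 0.20 at day 6 and 1.17 ± 0.20 at day 10 (limma adjusted p = 0.002 and 0.0009). With the compared groups fitted alone, the day 10 call was lost. Alpl, the tissue-nonspecific alkaline phosphatase that is stained to find reprogrammed colonies, rose from 5.88 and 5.74 in GFP to 6.45 and 6.41 at day 6 and 6.70 and 6.67 at day 10. The differences were 0.55 ± 0.09 and 0.94 ± 0.09 (limma adjusted p = 0.00088 and 1.1e-05). Alpl had the smallest difference of the early members and Rif1 the largest adjusted p. Just outside the threshold stood Sall1 by adjusted p (0.28 ± 0.12, limma adjusted p = 0.13) and Fgf4 by difference (0.35 ± 0.18, limma adjusted p = 0.21).

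At day 6, 4 members were higher and 1 lower in SKO+Flag than in GFP, against 13.2% of all genes higher and 10.8% lower. The lower one was Nanog, the factor that locks the ground state, at 5.13 and 5.25 against 5.51 (limma adjusted p = 0.047); that call was lost under 3 alternatives and when any of 9 arrays was left out. At day 10, 10 members were higher and 2 lower, against 13.7% and 13.2% of all genes. The GFP side of each of these comparisons is 1 array, assumed to vary as the SKO groups do. As the mean of both days, 10 were higher and 3 lower (17.5% and 18.2% of all genes), with a median difference of -0.05 over the members and -0.04 over all genes. The 3 lower members were Fut4 (-0.26), Tdgf1 (-0.21) and Nodal (-0.19), all close to background, and each call was lost under quantile normalization.

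The late responders were first called at day 10. Sall1, a zinc-finger repressor, was at 5.91 and 5.74 in GFP, 6.01 and 6.37 in SKO+Flag at day 6 and 6.56 and 6.62 at day 10, a difference of 0.85 ± 0.12 from GFP at day 10 (limma adjusted p = 0.00027). Jarid2, a subunit of Polycomb repressive complex 2, was well above background in GFP (6.83 and 6.81) and reached 7.45 and 7.67 at day 10 (0.75 ± 0.12, limma adjusted p = 0.00065). Fgf4, a growth factor that stem cells secrete, was at 6.23 and 6.08 in GFP, 6.50 and 6.66 in SKO+Flag at day 6 and 6.58 and 6.76 at day 10. Its difference from GFP at day 10 was 0.59 ± 0.18 (limma adjusted p = 0.036). That call was lost with array weights and without the second SKO+Flag array of day 10. Between day 6 and day 10 of SKO+Flag, Fgf4 was not called, so these values show no late onset for it.

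The other late members came up from signals at or below background in GFP. Nr0b1 (Dax1), an orphan nuclear receptor, lay at 4.76 and 4.69 in GFP, 4.77 and 4.87 in SKO+Flag on day 6, then 5.57 and 5.46 on day 10. Since its GFP signal is below background, the fold at day 10 is a bound, at least 1.21-fold above the background level (limma adjusted p = 0.00017 for the measured difference). Fbxo15, an F-box protein whose promoter was used in the first reprogramming screens, was at 4.72 and 4.70 in GFP and at 5.27 and 5.47 at day 10, at least 1.09-fold higher (limma adjusted p = 0.0039). Gdf3, a ligand of the TGF-beta family, was at 5.06 and 5.0 in GFP, 5.34 and 5.17 in SKO+Flag at day 6 and 5.46 and 5.35 at day 10. At day 10 it was at least 1.12-fold higher than GFP (limma adjusted p = 0.018). That call was lost without the first SKO+Flag array of day 10.

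**Figure D2:**
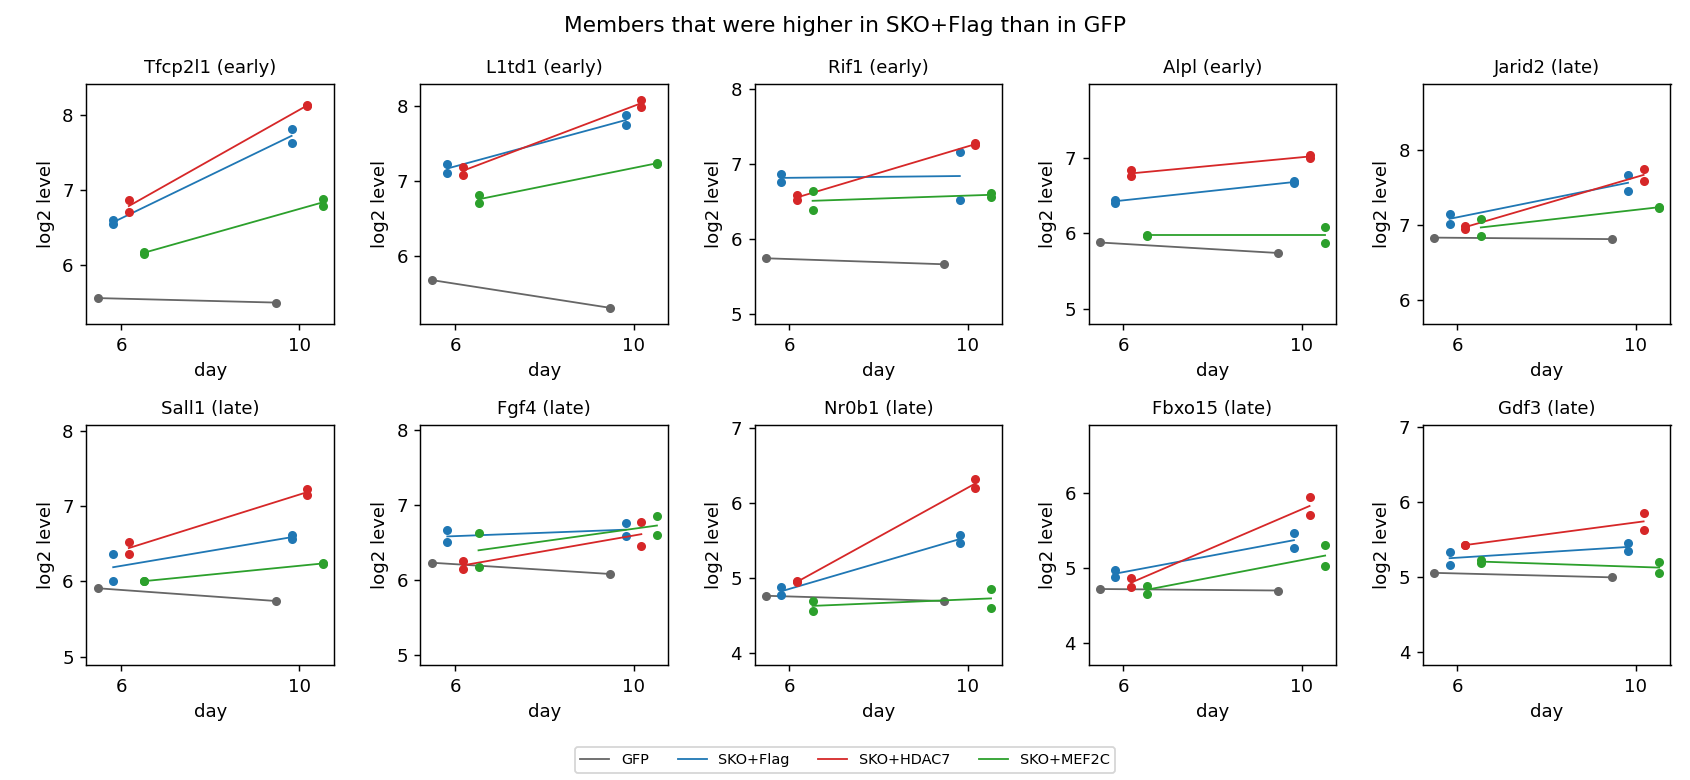
Log2 level (y axis) against day (x axis) for the 10 early and late members, with every array as a point, lines through the means of each vector, and the points of the vectors set apart sideways. The panels share the same height in log2 units but not the same range. The mean of SKO+HDAC7 at day 10 is the highest for 9 of the 10 genes, and Fgf4 is the exception. For Jarid2, L1td1 and Rif1 the difference from SKO+Flag at day 10 was not called, and the Jarid2 arrays of these groups overlap.

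The day 6 arrays of the 3 SKO vectors gave 4, 6 and 3 members higher than GFP. These comparisons share the GFP array of day 6, and those of HDAC7 and MEF2C were added after the data had been seen. In SKO+HDAC7 6 were higher and 0 lower (12.7% and 11.4% of all genes): the 4 early genes, Sall1 (0.54 ± 0.12) and Gdf3 (0.37 ± 0.11). In SKO+MEF2C 3 were higher and 0 lower (12.0% and 8.77%): L1td1 (1.07 ± 0.09), Rif1 (0.77 ± 0.20) and Tfcp2l1 (0.61 ± 0.09). Alpl, at 5.97 and 5.98 there against 5.88 in GFP, did not pass the test (0.09 ± 0.09, 95% interval -0.10 to 0.29, limma adjusted p = 0.54). As the mean of both days, 9 members were higher and 0 lower in SKO+HDAC7 than in GFP (17.5% and 15.9% of all genes), and 6 higher and 2 lower in SKO+MEF2C (16.6% and 14.6%). The 2 lower in SKO+MEF2C were Lefty1 (-0.27) and Tdgf1 (-0.22), both at or below background on every SKO+MEF2C array.

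Adding HDAC7 to SKO raised 6 members and lowered 0 as the mean of both days, against 4.83% of all genes higher and 6.06% lower. The median difference was 0.09 over the members and 0.02 over all genes. Nr0b1 was 4.95 and 4.94 on day 6 and 6.20 and 6.31 on day 10 in SKO+HDAC7, above every SKO+Flag array of the same day (0.43 ± 0.06, limma adjusted p = 0.0014). Its day 6 signals were below background in both groups, so this mean of both days is in measured signal and stands for no fold. Sall1, at 6.52 and 6.37 and then 7.23 and 7.15, was higher by 0.43 ± 0.07 (limma adjusted p = 0.0027). Alpl, at 6.84 and 6.76 and then 7.05 and 7.0, was higher by 0.36 ± 0.05 (limma adjusted p = 0.0011). Its arrays did not overlap those of SKO+Flag on either day.

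Tfcp2l1 read 6.86 and 6.71 on day 6 and 8.12 and 8.13 on day 10 with HDAC7, which was 0.31 ± 0.05 above SKO+Flag (limma adjusted p = 0.0035). Tdgf1 (Cripto), the co-receptor of Nodal, was near background but higher by 0.27 ± 0.06 (limma adjusted p = 0.012), with 5.39 and 5.34 at day 10 against 5.03 and 4.82; its SKO+Flag signals were below background, and the call was lost without the first SKO+HDAC7 array of day 10. Gdf3 was higher by 0.26 ± 0.06 (limma adjusted p = 0.025), and that call was lost under quantile normalization, median centring and a fit of the compared groups alone. Of the remaining early genes, L1td1 (0.10 ± 0.05, 95% interval -0.02 to 0.21) and Rif1 (0.09 ± 0.11, 95% interval -0.17 to 0.34) did not pass. Fgf4 was at -0.22 ± 0.11 and did not pass either (limma adjusted p = 0.22).

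MEF2C went the other way, with 0 members higher and 5 lower than SKO+Flag as the mean of both days, against 5.49% of all genes higher and 4.82% lower. The median difference was -0.01 over the members and 0.01 over all genes. Tfcp2l1 lay at 6.18 and 6.15 on day 6 and 6.79 and 6.88 at day 10, below every SKO+Flag array of the same day (-0.64 ± 0.05, limma adjusted p = 2.8e-05). Alpl stayed at 5.97 and 5.98 and then 6.08 and 5.87, lower by 0.58 on the log2 scale (-0.58 ± 0.05, limma adjusted p = 4.4e-05). L1td1, at 6.81 and 6.70 and then 7.23 and 7.24, was at -0.49 ± 0.05 (limma adjusted p = 0.00018).

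Nr0b1 with MEF2C did not leave background on any array: it read 4.69 and 4.56 on day 6 and 4.60 and 4.85 on day 10. In measured signal it was lower than SKO+Flag by the mean of both days (-0.49 ± 0.06, limma adjusted p = 0.00058). That value stands for no fold, as the day 6 signals of both groups were below background. At day 10 SKO+Flag was at least 1.28-fold above the background level. Sall1 was also lower (-0.27 ± 0.07, limma adjusted p = 0.035), a call lost in a fit of the compared groups alone, with a replicate block within each day and without any of 6 arrays. Jarid2 (-0.22 ± 0.07), Rif1 (-0.28 ± 0.11) and Fbxo15 (-0.21 ± 0.08) did not pass, with limma adjusted p from 0.078 to 0.17.

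**Figure D3:**
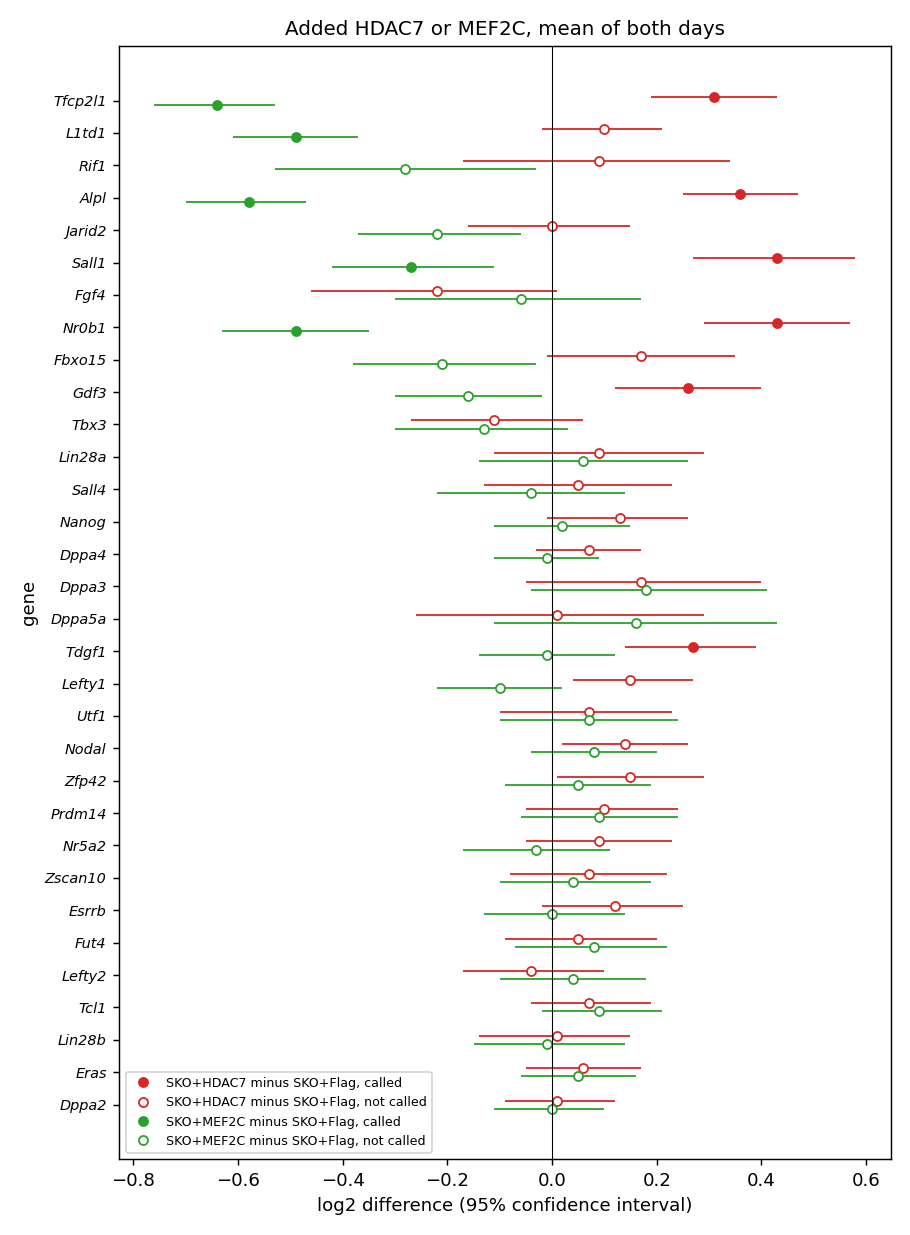
Difference from SKO+Flag as the mean of both days (x axis, log2) for each of the 32 genes (y axis), with HDAC7 in red, MEF2C in green, bars for 95% confidence intervals and filled points for called genes. The 6 filled red points lie right of 0 and the 5 filled green points left of it, and Tfcp2l1, Alpl, Sall1 and Nr0b1 are filled in both colours.

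SKO+HDAC7 was also set against SKO+MEF2C directly, without the SKO+Flag arrays that both effects share. Here 11 members were higher and 0 lower, against 10.3% of all genes higher and 11.8% lower, with a median of 0.08 over the members and 0.01 over all genes. Tfcp2l1 was 1.94-fold higher (0.95 ± 0.05, limma adjusted p = 3.2e-07), Alpl 1.92-fold (0.94 ± 0.05, limma adjusted p = 2.6e-07) and Nr0b1 at least 1.35-fold (limma adjusted p = 1.7e-06). Sall1 (0.69), L1td1 (0.59), Gdf3 (0.42), Fbxo15 (0.38), Tdgf1 (0.28) and Lefty1 (0.25) were also higher, as were Rif1 (0.36) and Jarid2 (0.21). The Rif1 call was lost without any of 9 arrays. The Jarid2 call was lost without any of 8, under median centring and with 1 replicate block for both days. Tdgf1 and Lefty1 stood close to background, and their folds were at least 1.05 and 1.02. Of the 10 early and late members 9 were higher, and of the other 22 members 2. Those 22 include the 6 silent members, defined as at or below background on all arrays, SKO+HDAC7 and SKO+MEF2C included. A further 11 of them hovered around background. The class rules thus left these 22 less room for a call, so the contrast partly follows from those rules and is no finding. Fgf4 was the early or late member that did not pass (-0.16 ± 0.11, 95% interval -0.39 to 0.08).

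Epithelial markers moved with these members. Their mean level over 6 genes was 5.60 and 5.56 in GFP, 6.47 to 6.62 in SKO+Flag at day 10, 7.18 to 7.23 in SKO+HDAC7 at day 10 and 5.85 to 5.97 in SKO+MEF2C at day 10. Of the 6, 4 rose with HDAC7 and 4 fell with MEF2C as the mean of both days, against 4.83% and 4.82% of all genes. Epcam, an epithelial adhesion molecule that embryonic stem cells also carry, went from 5.26 and 4.90 in GFP to 9.02 and 8.93 in SKO+HDAC7 at day 10. The endothelial list rose through 1 of its 4 genes, Tek, which was 2.78 ± 0.08 higher in SKO+Flag than in GFP. Fibroblast markers differed between the same groups as the mean of both days. Of 10, HDAC7 raised 2 and lowered 7 (4.83% and 6.06% of all genes), and MEF2C raised 4 and lowered 0 (5.49% and 4.82%). Their mean level at day 10 was 9.23 to 9.28 in SKO+Flag, 8.98 to 9.01 in SKO+HDAC7 and 9.60 to 9.62 in SKO+MEF2C. HDAC7 also raised 2 of 7 trophoblast markers, Gata3 (0.57 ± 0.07, limma adjusted p = 0.00048) and Cdx2 (0.16 ± 0.04, limma adjusted p = 0.041), and 1 of 6 endoderm markers, Gata4 (0.27 ± 0.06, limma adjusted p = 0.016). It raised 1 of 5 macrophage and 1 of 4 endothelial markers as well, and 0 of 7 germ cell markers, against 4.83% of all genes raised. The part of other cell types in the members' differences was not tested.

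By day, HDAC7 raised 1 member at day 6 (1.82% of all genes higher, 2.76% lower), which was Alpl (0.37 ± 0.07, limma adjusted p = 0.017). At day 10 it raised 7 and lowered 0 (3.33% and 3.95%). They were Nr0b1 (0.73 ± 0.09), Sall1 (0.60 ± 0.10), Fbxo15 (0.46 ± 0.11), Tdgf1 (0.44 ± 0.08), Tfcp2l1 (0.40 ± 0.08), Gdf3 (0.34 ± 0.09) and Alpl (0.34 ± 0.07). The Tdgf1 value starts from signals below background, so its fold is a bound, at least 1.16. The day 10 call of Gdf3 was lost under 6 of 9 alternatives and without any of 9 arrays. That of Fbxo15 was lost under 5 of 9 alternatives and without any of 4 arrays. Fitted on the compared groups alone, the day 6 count was 0 and the day 10 count 2; the day 6 count was also 0 without the first SKO+Flag or the first SKO+HDAC7 array of day 6, and the day 10 count was 4 without the first SKO+Flag array of that day and 3 without the second SKO+HDAC7 array. MEF2C lowered 3 members at day 6 and raised 0 (1.77% and 1.33% of all genes): Alpl (-0.45), L1td1 (-0.41) and Tfcp2l1 (-0.40). That count was 0 without either SKO+MEF2C array of day 6 and 1 without either SKO+Flag array of day 6. At day 10 it lowered 4 and raised 0 (3.0% and 4.0%): Tfcp2l1 (-0.88), Alpl (-0.71), L1td1 (-0.58) and Nr0b1, whose bound is given above.

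Whether an effect differed between the days was tested by itself. For HDAC7 limma called 0 members, against 0.125% of all genes called; 7 members were at an unadjusted p under 0.05, which is 21.9% of them, against 11.9% of all genes. Nr0b1 was the nearest (0.61 ± 0.13, limma adjusted p = 0.10). For MEF2C limma called 0 members, against 0.0853% of all genes called; 4 members were at an unadjusted p under 0.05 (12.5% of them, 6.71% of all genes). Nr0b1 (-0.60 ± 0.13, limma adjusted p = 0.16) and Tfcp2l1 (-0.48 ± 0.11, limma adjusted p = 0.18) were the nearest. Between SKO+HDAC7 and SKO+MEF2C, in a comparison chosen after the data had been seen, the change from day 6 to day 10 was larger with HDAC7 for 2 members and smaller for 0, against 0.963% and 1.24% of all genes. They were Tfcp2l1 (a difference of 0.67 ± 0.11, limma adjusted p = 0.0091) and Nr0b1 (1.21 ± 0.13 in the measured signals, limma adjusted p = 0.00076). For Nr0b1 3 of the 4 groups were not above background, so that value stands for no fold.

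From day 6 to day 10, 6 members rose and 0 fell in SKO+Flag (3.75% of all genes higher, 4.33% lower). Tfcp2l1 rose by 1.15 ± 0.08, L1td1 by 0.65 ± 0.08, Jarid2 by 0.48 ± 0.10 and Sall1 by 0.40 ± 0.10. Nr0b1 (limma adjusted p = 0.0007) and Fbxo15 (limma adjusted p = 0.038) started below background and rose at least 1.24-fold and 1.12-fold. The 6 calls became 3 with the compared groups fitted alone or a replicate block within each day, and 1 with a block on the compared groups; those of Sall1, Fbxo15 and Jarid2 were lost under 5, 6 and 3 of 11 alternatives. Rif1 did not pass (0.02 ± 0.16, 95% interval -0.34 to 0.38). In SKO+HDAC7 10 rose and 1 fell (7.86% and 6.7%). Tfcp2l1 rose by 1.34 and L1td1 by 0.90, Nr0b1 rose at least 1.95-fold and Fbxo15 at least 1.44-fold from signals below background, and Sall1, Rif1, Jarid2 and Gdf3 rose by 0.32 to 0.74. Without either SKO+HDAC7 array of day 6 the members called numbered 7, and without the second of day 10 they numbered 6.

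Among the members outside the early and late classes, Nanog rose in SKO+HDAC7 from 5.27 and 5.28 to 5.61 and 5.63 (0.34 ± 0.08, limma adjusted p = 0.019), a call lost without any of the 4 SKO+HDAC7 arrays. Those day 10 values stand close to the GFP arrays (5.51 and 5.39). Zfp42 (Rex1), a marker of naive stem cells, read 4.91 and 4.79 on day 6 and 5.0 and 5.29 on day 10 (0.30 ± 0.09, limma adjusted p = 0.048), and stood above background on 1 of 14 arrays. That call was lost under 4 of 8 alternatives and without any of 9 arrays, and against the background level no fold can be given. Fut4, a fucosyltransferase, fell (-0.39 ± 0.09, limma adjusted p = 0.016) while never above background. In SKO+MEF2C 2 members rose and 0 fell (1.85% and 1.23% of all genes), Tfcp2l1 (0.67 ± 0.08) and L1td1 (0.48 ± 0.08). Without the second SKO+MEF2C array of either day, 1 of those calls was left.

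**Figure D4:**
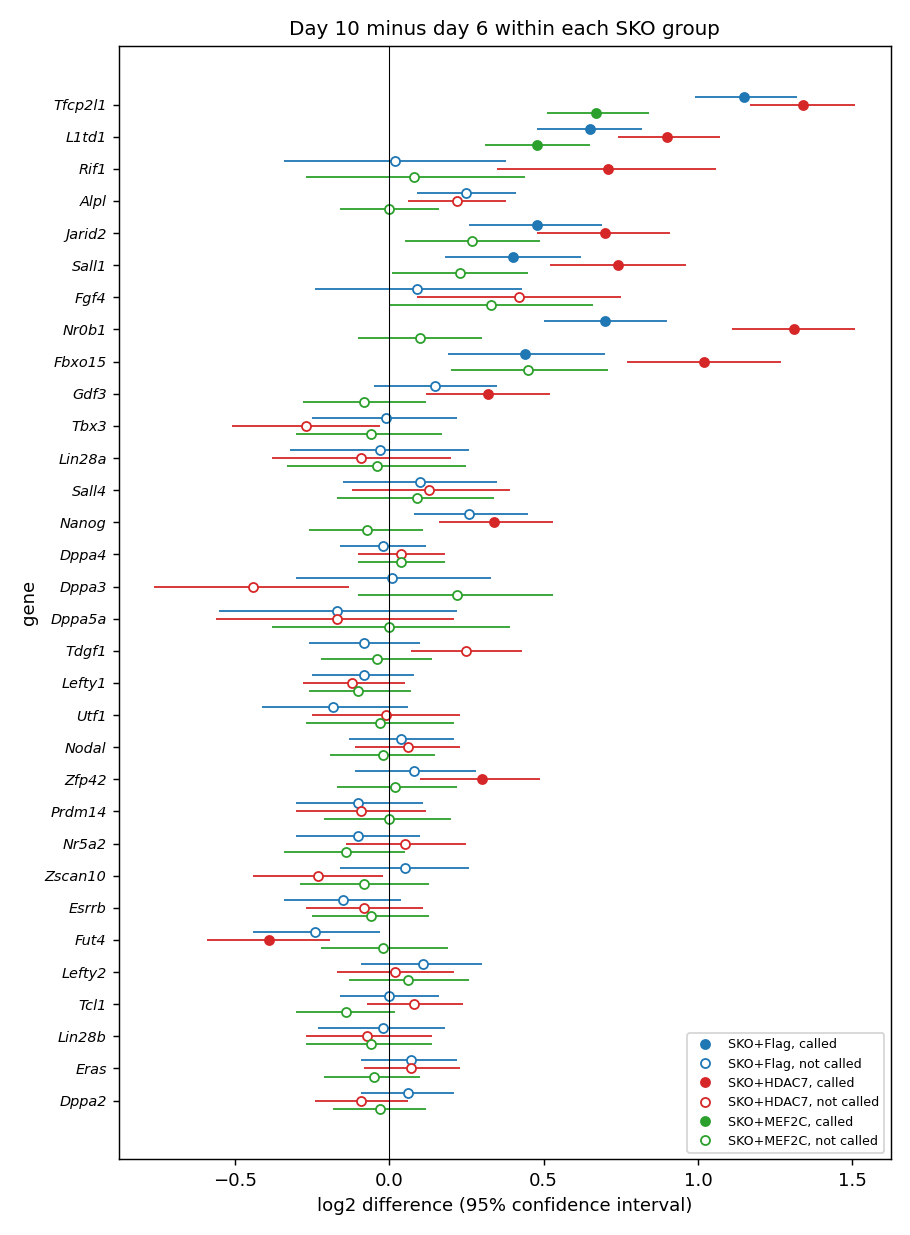
Day 10 minus day 6 (x axis, log2) for each of the 32 genes (y axis) in SKO+Flag (blue), SKO+HDAC7 (red) and SKO+MEF2C (green), with 95% confidence intervals and filled points for called genes. Filled points number 6, 11 and 2, and the Nr0b1 points lie at 0.70, 1.31 and 0.10, where every day 6 signal of that gene was below background.

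The members above background in GFP did not pass the test against GFP as the mean of both days in any SKO group. For SKO+Flag, not being higher largely follows from the definition of this class, which holds no early or late member, and is no finding. That definition did not set whether they were lower, nor the results in SKO+HDAC7 and SKO+MEF2C. Tbx3, a T-box factor also used in mesenchyme, ranged from 6.38 to 6.86 over the 14 arrays, and Lin28a, which blocks let-7 maturation, from 5.49 to 5.95. Sall4, a zinc-finger factor of the core network, ranged from 5.34 to 5.75 and Dppa4 from 5.37 to 5.59. Dppa4 has a second probe set at 4.20 to 4.37, below background on all arrays, so its class depends on the probe set. Dppa2 and Dppa3 also have a second, dimmer probe set.

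The silent and remaining members include several of the best known stem cell genes. Esrrb, an orphan receptor that can stand in for Nanog, ranged from 4.91 to 5.25 and was above background on 1 of 14 arrays. Utf1, a chromatin factor, and Prdm14, a repressor of differentiation, were likewise above background on 1 array each. Dppa5a, Dppa3, Lefty1, Nr5a2, Nodal, Tdgf1 and Zscan10 were so on 2 to 4 arrays. The 6 silent genes ranged by 0.21 (Eras) to 0.53 (Fut4) over the 14 arrays, against 1.31 (Alpl) to 2.78 (L1td1) for the early ones. The classes were set from these same values, so this contrast largely follows from their rules and is no finding. Fut4 was the silent member nearest to the limit, at 5.25 on an array whose background level was 5.33. A transcript at or below background may still be present at a level these arrays do not show.

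Of 28 other genes that regulate the stem cell state, 27 were measured. In SKO+Flag against GFP as the mean of both days, 5 were higher and 7 lower (17.5% and 18.2% of all genes). Tet2, which oxidises methylated cytosine, was higher (1.39 ± 0.11), as was Socs3, the feedback inhibitor of LIF signalling (0.66 ± 0.06). Il6st (gp130), the signalling subunit of the LIF receptor, was lower (-1.97 ± 0.07), and so was Klf2 (-0.62 ± 0.10). HDAC7 raised 1, Pim1 (0.27 ± 0.07), and lowered 1, Stat3 (-0.16 ± 0.04), against 4.83% and 6.06% of all genes. MEF2C raised 1, Fgf5 (0.19 ± 0.05), and lowered 5, among them Tet2 (-0.50 ± 0.09), Socs3 (-0.38 ± 0.05), Tcf7l1 (-0.32 ± 0.06) and Lifr (-0.30 ± 0.06), against 5.49% and 4.82% of all genes. Between SKO+HDAC7 and SKO+MEF2C 5 were higher and 3 lower (10.3% and 11.8% of all genes), led by Tet2 (0.56 ± 0.09) and Tcf7l1 (0.49 ± 0.06).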

How the data were processed

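RNA of 14 samples was hybridised to Affymetrix whole-transcript arrays. The deposited values are log2 expression levels per probe set; the submitters' processing notes name RMA and Partek, while a genome build is not given in the sources used here. They were used as deposited. Of 28815 probe sets, 21780 had 1 gene symbol, 1605 several and 5430 none here; the first gave 19935 genes, 998 of them with several probe sets. In R 4.3.3 with limma 3.58.1, a group-means model was fitted to 14 arrays in 8 groups (6 residual and 4.71 prior degrees of freedom), and p-values were adjusted over all genes. Tested on simulated data for the HDAC7 effect as the mean of both days, over 19935 genes, it recovered 77.3% of changes of 0.3 and 100% of those of 0.6.

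The number of arrays limits the precision. All 32 members are named; of other lists, called genes, up to 4 per list and comparison. The members and lists were chosen with earlier results of these data known. The early and late classes were defined from the SKO+Flag and GFP arrays; the silent class used the background level and all 14 arrays, SKO+HDAC7 and SKO+MEF2C included. The comparisons of SKO+HDAC7 and SKO+MEF2C with GFP at day 6, the difference of their time courses and the second octamer and Sox motif were added after the data were seen. Alternatives were quantile normalization, median centring, an intensity-dependent robust prior, array weights, the compared groups alone, the mean over probe sets, a filter on dim genes, replicate blocks and leaving out each array. Deviations of same-numbered arrays correlated weakly (-0.24 to 0.18 over all pairs of groups, -0.09 to 0.18 within a day), so the samples were not treated as paired. A weak effect shared by same-numbered arrays of a day is not excluded by these values.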

Additional observations from a re-analysis of the deposited data

Results flagged for a closer look

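The change from day 6 to day 10 differed between SKO+HDAC7 and SKO+MEF2C for 2 members, as tested in a comparison chosen after the data had been seen. For Nr0b1 the difference of the 2 changes in measured signal was 1.21 ± 0.13 (limma adjusted p = 0.00076), which stands for no fold, since 3 of the 4 groups were not above background. It rose at least 1.95-fold with HDAC7, and no SKO+MEF2C array was above background. For Tfcp2l1 the difference was 0.67 ± 0.11 (limma adjusted p = 0.0091), from changes of 1.34 and 0.67. Both calls held under every alternative run for them. Epcam (1.74 ± 0.14), Krt8 (1.13 ± 0.21), Cdh1 (1.08 ± 0.16) and Krt14 (0.55 ± 0.11) of the 6 epithelial markers were called in the same direction, against 0.963% of all genes. The part of these markers in the result was not tested.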

How the results depend on the processing

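Of the gene results recomputed under the alternatives, 16837 were counted as unchanged, 483 lost a call and 93 gained one in the same direction. Of the results called in the main setting, 0 reversed. A result not called there was counted as unchanged when its direction flipped, so the 16837 did not all keep their direction. Other pathway genes and epithelial markers entered only where called in the main setting. The count of members called in SKO+MEF2C against GFP was 5 under quantile normalization (8 in the main setting, 9 under median centring). Fitting the compared groups alone, which leaves fewer arrays, gave 0 for HDAC7 at day 6 (1), 2 for HDAC7 at day 10 (7), 3 for day 10 against day 6 in SKO+Flag (6) and 5 for the difference of time courses between SKO+HDAC7 and SKO+MEF2C (2). A replicate block within each day gave 3 for the SKO+Flag time course and 7 for the SKO+HDAC7 one (11); a replicate block on the 4 SKO+Flag arrays alone gave 1 and crossed numbers, added after seeing the data, 4. With one replicate block for both days the HDAC7 and MEF2C effects as the mean of both days were at 6 and 5 members, and with a replicate block within each day at 6 and 4. No paired analysis was possible for the comparisons with GFP because the GFP arrays carry no number. The background level moved the silent class from 6 to 19 (99th percentile) or 23 (array median), the class above background in GFP from 5 to 2 or 1, the remaining class from 11 to 1 or 0, and the late class from 6 to 4 at the array median. The cause of these shifts was not tested.

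Leaving out each array in turn gave, as members called, 5 to 7 for the HDAC7 effect and 4 to 7 for the MEF2C effect as the mean of days, 0 to 1 and 3 to 7 for HDAC7 at day 6 and day 10, 0 to 3 and 4 to 6 for MEF2C, 9 to 11 for SKO+HDAC7 against SKO+MEF2C, 4 to 7, 6 to 12 and 1 to 3 for the time courses of SKO+Flag, SKO+HDAC7 and SKO+MEF2C, 0 to 1 (HDAC7) and 0 to 0 (MEF2C) for an effect's difference between days, and 2 to 4 for the difference of time courses (4 without either SKO+Flag array of day 10). The 1 for HDAC7 came without the second SKO+Flag array of day 10. Against GFP it gave 10 to 16, 9 to 10 and 6 to 9 for SKO+Flag, SKO+HDAC7 and SKO+MEF2C as the mean of days, 4 to 7, 5 to 6 and 2 to 3 at day 6, and 11 to 13 for SKO+Flag at day 10.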
